A study of Drosophila melanogaster with 2 samples.

Results

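Levels of 10 genes of the epidermal growth factor receptor (EGFR) pathway, of 17737 genes counted, were read across cell types of the adult fly midgut: the ligands *spi*, *Krn* and *vn*, the ligand-processing protease *rho*, the receptor *Egfr*, the GTPase *Ras85D*, the ETS-domain transcription factors *pnt* and *yan*, and the inhibitors *sty* and *aos*. They were listed by name, and each was found in the gene annotation of the counts, *yan* under its FlyBase symbol *aop*. Single cells came from dissected midguts of virgin female Drosophila melanogaster of 2 genotypes, with 27 guts pooled in each library. In *esgts/D30A* flies (w; esgGal4, tubGAL80[ts], UASGFP/+; UAS-ImdD30A/+) the *esg* driver, active in intestinal progenitors, expressed ImdD30A, an inhibitory form of the immune deficiency (IMD) pathway adaptor Imd, and in *esgts/+* flies (w; esgGal4, tubGAL80[ts], UASGFP/+; +/+) the same driver had no ImdD30A transgene. Both carried the GFP reporter and the temperature-sensitive GAL80 repressor, were held at 29 °C for 10 days as adults, and were dissociated with elastase at 1 mg/ml before a density gradient and 3′ single-cell capture. Each genotype had 1 library, so no test between genotypes was possible, and genotype cannot be told apart from any other difference between the libraries.

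In the fly midgut, intestinal stem cells divide to renew themselves and to produce enteroblasts, which become absorptive enterocytes, or precursors of hormone-producing enteroendocrine cells. EGFR ligands from the epithelium and the visceral muscle bind *Egfr* and signal through *Ras85D* and the MAP kinase cascade, which activates the Pointed (*pnt*) factor, relieves repression by Yan, and is known to drive stem cell division and growth. The pathway restrains itself: *sty* (Sprouty) blocks signalling inside the cell, while *aos* (Argos) is secreted and sequesters the ligand Spitz.

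The *esgts/D30A* library held 6322 cell barcodes and the *esgts/+* library 4242, of which 4083 and 3959 passed the filters, with medians of 1698 and 1235 unique transcript tags (UMIs) per cell. Clustering gave 549 progenitor-like cells in *esgts/D30A* and 569 in *esgts/+*, 172 and 175 enteroendocrine-like cells, and 1680 and 1848 enterocyte-like cells. Unnamed clusters held 1328 cells in *esgts/D30A* and 973 in *esgts/+*, which are in none of these classes. Progenitor-like cells with at least 1 UMI of *Dl*, the Notch ligand that marks stem cells, were called *Dl*-positive, and these numbered 244 in *esgts/D30A* and 186 in *esgts/+*, against 305 and 383 *Dl*-negative cells. *Dl*-positive cells were 44.4% (40.2% to 48.7%) of progenitors in *esgts/D30A* and 32.7% (28.8% to 36.7%) in *esgts/+*, but 23.3% (19.7% to 27.3%) and 20.4% (16.8% to 24.4%) once each cell was thinned to 3400 UMIs, so part of the unthinned gap goes with depth: median UMIs in progenitors were 17393 in *esgts/D30A* and 10131 in *esgts/+*. The marker genes *esg* and *pros* were among those used to name the clusters, so their levels describe the classes and do not check the names. The transcription factor gene *esg* stood at 261 and 219.5 CPM (counts of UMIs per 1000000) in *esgts/D30A* and *esgts/+* progenitors. It stood at 75.1 and 92.2 CPM in enteroendocrine cells and 7.08 and 4.43 CPM in enterocytes. The enteroendocrine transcription factor gene *pros* stood at 1998 and 1932 CPM in enteroendocrine cells and 3.40 and 4.90 CPM in progenitors. Markers of visceral muscle summed to 574.5 CPM in *esgts/D30A* progenitors (13 of 13 markers detected) and 471 CPM in *esgts/+* progenitors (5 of 13, with *Mhc* and *Mlc1* at 0), but *Tm1*, which is not particular to muscle, made up 7278 of 7425 and 3352 of 3364 of those UMIs. Hemocyte markers summed to 95.6 and 88.5 CPM in *esgts/D30A* and *esgts/+*, nearly all from *crq*, with *Hml*, *NimC1*, *He* and *eater* at 0 in both, while trachea markers summed to 10.1 and 6.72 CPM and fat body markers to 2.40 and 2.10 CPM. Several enterocyte clusters were led by digestive enzyme genes such as *Jon66Ci* and *LManV*. The part of the muscle, hemocyte, trachea and fat body markers in the results was not tested. The *imd* transcript read 14.3 CPM in *esgts/D30A* progenitors and 9.95 CPM in *esgts/+* progenitors, but a 3′ tag need not carry the transgene's own sequence, so this does not check the genotypes.

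The libraries shared 132 cell barcodes with very unequal copies: in 123 of the 132 pairs 1 copy had more than 50 times the UMIs of the other (median ratio 165), and the deeper copy lay in *esgts/D30A* for 95 barcodes and in *esgts/+* for 37. Progenitors held 18 of them in *esgts/D30A*, all deeper copies with 16.5% of the progenitor UMIs, and 24 in *esgts/+*, of which 22 were shallower copies and which together held 0.624% of the UMIs. Enterocytes held 54 and 53, with 20.5% and 22.5% of their UMIs in *esgts/D30A* and *esgts/+*. Ratios of *sty* in progenitors and enterocytes, *vn* in *Dl*-positive cells, and *spi* and *Krn* in enterocytes are also given without them. Other single-gene ratios, including those of the wider list, are given with them only.

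All levels are UMIs of a gene per 1000000 UMIs of all genes (CPM), summed over the cells of a class in 1 library, with an exact Poisson 95% interval in brackets; ratios are log2 of *esgts/D30A* over *esgts/+* with an exact 95% interval. Intervals cover counting error only, not the variation between flies, which 1 library cannot show. The counts are 3′ end tags, so they are not scaled by transcript length, and a level compared between genes is a tag count. A gene was compared where both libraries together gave at least 20 UMIs in a class, and a difference of 1.5-fold (0.58 on the log2 scale) served as a fixed limit of size.

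The members differed in how much of their signal lay in progenitors. Of all UMIs of *aos*, 89.4% in *esgts/D30A* and 87.2% in *esgts/+* lay in progenitors, with 88.7% and 90.3% of those of *Egfr*, 85.4% and 84.2% of those of *sty*, 73.8% and 78.8% of those of *spi*, 75.4% and 79.6% of those of *vn*, 53.4% and 47.1% of those of *rho* and 48.4% and 47.2% of those of *pnt*, where progenitors held 26.1% and 23.9% of the UMIs of all genes. The share of *Ras85D* was 36.1% and 35.1% and that of *yan* 28.9% and 31.0%, both above the share of all genes, whereas that of *Krn*, 21.6% and 23.3%, was below it. For *vn*, 1 cell held 148 of 224 progenitor UMIs in *esgts/D30A* and 1 held 126 of 183 in *esgts/+*. The *vn* shares, and its place in the *esgts/D30A* order below, rest largely on those cells. In *Dl*-positive progenitors the order of levels in *esgts/D30A* was *sty*, *Egfr*, *yan*, *pnt*, *spi*, *aos*, *Ras85D*, *vn*, *Krn* and *rho*, and the intervals of *yan* and *pnt*, of *spi* and *aos*, and of *aos* and *Ras85D* overlapped. In *esgts/+* the order was *sty*, *Egfr*, *yan*, *pnt*, *spi*, *Ras85D*, *aos*, *rho*, *Krn* and *vn*, and the intervals overlapped for *Ras85D* and *aos* and among *rho*, *Krn* and *vn*. In enterocytes *yan* was highest in both genotypes, and in enteroendocrine cells *sty* led in *esgts/D30A* whereas *yan*, *pnt* and *sty* overlapped in *esgts/+*.

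**Figure D1:**
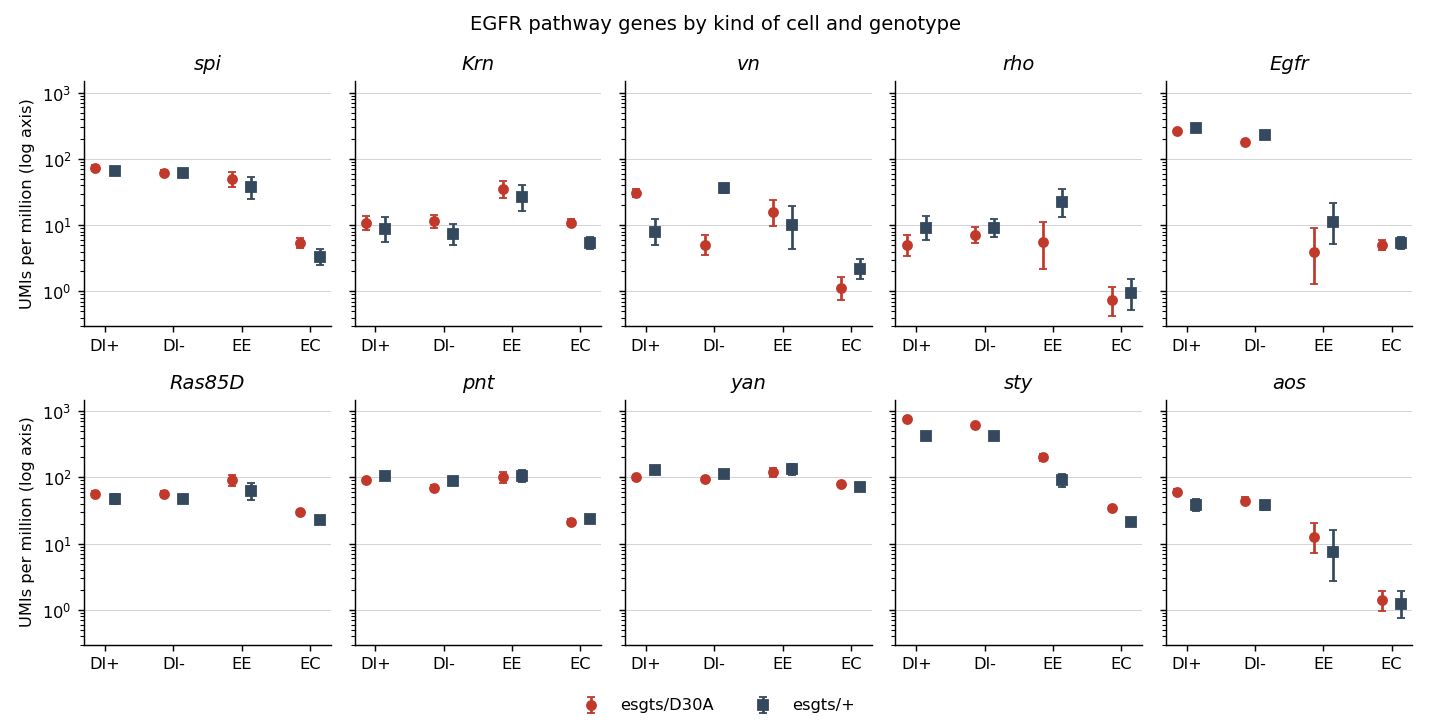
Level of each of the 10 genes in CPM (log axis) in *Dl*-positive and *Dl*-negative progenitor-like, enteroendocrine-like and enterocyte-like cells, with *esgts/D30A* as red circles left of *esgts/+* as dark squares and bars for exact Poisson 95% intervals. *Egfr* stands at 262 CPM in *Dl*-positive cells and 3.91 CPM in enteroendocrine cells of *esgts/D30A*, while *yan* stays between 71.2 and 132 CPM in the classes of *esgts/+*.

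Set against enterocytes of the same library, 8 of 10 members were at least 1.5-fold higher in progenitors in *esgts/D30A*, where 45.6% of all compared genes were, and 9 of 10 in *esgts/+*, against 52.4% of genes. The receptor stood out in size: *Egfr* was 43.4-fold (36.1 to 52.7) higher in *esgts/D30A* and 46.7-fold (37.6 to 58.6) higher in *esgts/+*, and *sty* 19.6-fold (18.3 to 21.1) and 19.5-fold (17.4 to 21.9). For *aos* the folds were 37.7-fold (26.5 to 55.6) in *esgts/D30A* and 30.5-fold (19.4 to 50.8) in *esgts/+*. At the other end, *Krn* differed by 1.03-fold (0.837 to 1.27) in *esgts/D30A* and 1.46-fold (1.03 to 2.07) in *esgts/+*, and *yan* by 1.21-fold (1.12 to 1.30) and 1.66-fold (1.51 to 1.81). These contrasts describe the classes and were not tested, since clusters were drawn from the same cells, although the 10 genes were left out of the genes used for clustering.

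Thinned to 750 UMIs per cell, enterocytes gave a share of cells with a UMI of 1.04% in *esgts/D30A* and 0.739% in *esgts/+* for *esg*, a progenitor gene. This share serves as a point of reference only. It is not a background level for each gene, since free RNA would vary with a gene's level, and the source of these UMIs was not tested. The enterocyte shares of *Egfr* (0.734% and 0.806%), *spi* (0.245% and 0.269%), *vn* (0.245% and 0.134%), *rho* (0.122% and 0.269%) and *aos* (0.245% and 0.134%) in *esgts/D30A* and *esgts/+* were about the size of the *esg* share or below it. The share of *Krn* (0.734% and 0.269%) was no larger, but its CPM in enterocytes was within 1.5-fold of that in progenitors, which that of *esg* was not. The shares of *sty* (5.02% [4.01% to 6.19%] and 1.88% [1.25% to 2.71%]), *yan* (6.49% [5.34% to 7.79%] and 7.25% [5.99% to 8.69%]) and *Ras85D* (2.33% [1.65% to 3.18%] and 2.01% [1.36% to 2.86%]) were above the *esg* share, and those of *pnt* were 1.47% (0.943% to 2.18%) and 1.88% (1.25% to 2.71%). Thinning left out 46 and 359 enterocytes with fewer UMIs. Without thinning *sty* was found in 19.5% and 8.17% of enterocytes. Median depths in enterocytes were 2152.5 UMIs in *esgts/D30A* and 1417.5 in *esgts/+*.

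Among the ligands, *spi*, the main transforming-growth-factor-alpha-like ligand, was higher in progenitors and enteroendocrine cells than in enterocytes, and its summed ratio between genotypes was near 0 in progenitors. In *Dl*-positive cells *spi* stood at 72.7 CPM (66.1 to 79.7) in *esgts/D30A* and 65.7 CPM (56.2 to 76.3) in *esgts/+*, and in *Dl*-negative cells at 62.2 CPM (56.3 to 68.4) and 60.9 CPM (53.9 to 68.5), with log2 ratios of 0.15 (-0.11 to 0.41) and 0.031 (-0.19 to 0.26). The *Dl*-negative value was -0.64 when cells were thinned before summing, a single draw of 37 and 65 UMIs, and -0.22 as the expectation over all such draws. Enteroendocrine cells had 49.3 CPM (37.9 to 63.1) in *esgts/D30A* and 37.4 CPM (25.2 to 53.4) in *esgts/+*, a log2 ratio of 0.40 (-0.25 to 1.08). In enterocytes *spi* read 5.43 CPM in *esgts/D30A* and 3.31 CPM in *esgts/+*, a log2 ratio of 0.72 (0.24 to 1.21). That ratio was 0.29 as the expectation after thinning each cell to 750 UMIs, where the share of *spi* was below that of *esg*. Of the 4 summed ratios only that of enterocytes had an interval off 0, it was 0.50 without the shared barcodes, and the median over all genes compared in enterocytes was itself 0.45.

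*Krn* (Keren), a ligand close to Spitz, had its highest level of the 4 classes in enteroendocrine cells, which held 35.2 CPM (25.7 to 47.1) in *esgts/D30A* and 26.2 CPM (16.2 to 40.0) in *esgts/+*, which was 3.14-fold (2.19 to 4.41) and 3.33-fold (1.92 to 5.59) the level of progenitors. Within the enteroendocrine clusters *Krn* reached 90.7 CPM (52.8 to 145) in *esgts/D30A* and 51.3 CPM (16.6 to 119.6) in *esgts/+* in the cluster led by *CG7191* and the hormone gene *Tk*. This *Tk* cluster had only 22 cells in *esgts/D30A* and 19 in *esgts/+*. Enterocytes had 10.9 CPM (9.55 to 12.3) in *esgts/D30A*, from 250 UMIs, and 5.36 CPM (4.29 to 6.62) in *esgts/+*, from 86 UMIs, a log2 ratio of 1.02 (0.66 to 1.39), or 0.57 relative to the median of all genes and 0.86 without the shared barcodes. It was higher in *esgts/D30A* in each of the 5 enterocyte clusters with 20 UMIs, with an interval off 0 in 3 of them. In *Dl*-positive progenitors *Krn* stood at 10.9 CPM in *esgts/D30A* and 8.78 CPM in *esgts/+* (log2 ratio 0.31 [-0.39 to 1.06]), and in *Dl*-negative progenitors at 11.5 and 7.30 CPM (log2 ratio 0.66 [0.053 to 1.29]). Thinning before summing gave -0.19 from a draw of 7 and 9 UMIs, and 0.86 as the expectation over all draws. Exons of *Krn* overlap those of *Ndfip* on the same strand, so how tags were divided between these genes is uncertain.

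The neuregulin-like ligand *vn* (Vein), known from the visceral muscle, came mostly from 1 cell in each library. In progenitors 148 of 224 *vn* UMIs in *esgts/D30A* lay in 1 cell of 152008 UMIs, and 126 of 183 in *esgts/+* in 1 cell of 40310 UMIs. The next cells held 5 and 9 UMIs, and *vn* was detected in 48 and 36 progenitors. The *esgts/D30A* cell had 1 UMI of *Dl* and 28 of *esg*, and its barcode also occurred in *esgts/+* with 1494 UMIs and no *vn*; the *esgts/+* cell had no *Dl* and 2 UMIs of *esg*. Muscle markers stood at 454 and 446.5 CPM in these cells, beside the 574.5 and 471 CPM of all progenitors of *esgts/D30A* and *esgts/+*. Nearly all of the progenitor sum was *Tm1*, which is not particular to muscle, so the sum cannot show whether these cells are muscle. With the *esgts/D30A* cell called *Dl*-positive and the *esgts/+* cell *Dl*-negative, *vn* read 30.4 CPM (26.2 to 35.1) in *esgts/D30A* and 8.02 CPM (4.96 to 12.3) in *esgts/+* in *Dl*-positive cells but 5.09 CPM (3.53 to 7.12) and 35.9 CPM (30.5 to 41.8) in *Dl*-negative cells. The log2 ratios of 1.92 (1.27 to 2.65) and -2.82 (-3.39 to -2.27) became -0.22 and -0.66 without those 2 cells, and -0.0014 and -0.88 when the cell with most *vn* was left out of each library in each class. In enteroendocrine cells *vn* had 20 UMIs in *esgts/D30A* and 8 in *esgts/+* (log2 ratio 0.65 [-0.59 to 2.04]), and in enterocytes 26 and 35 (log2 ratio -0.95 [-1.74 to -0.18]).

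**Figure D2:**
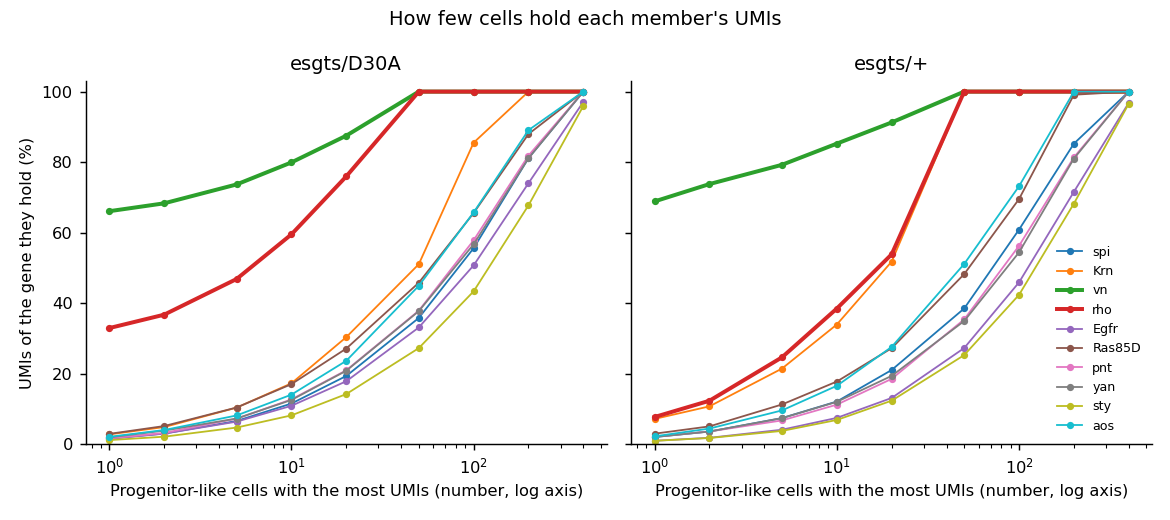
Cumulative percent of the progenitor UMIs of each gene (y axis) held by the cells with most UMIs of that gene (x axis, number of cells), by library. A single cell holds 66.1% of the *vn* UMIs in *esgts/D30A* and 68.9% in *esgts/+*, against 1.13% and 0.935% of the *sty* UMIs.

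The intramembrane protease *rho* (Rhomboid), which releases active Spitz and so sets where the ligand acts, was among the scarcest members in progenitors. *Dl*-positive cells had 4.96 CPM (3.37 to 7.04) in *esgts/D30A* (31 UMIs) and 9.16 CPM (5.87 to 13.6) in *esgts/+* (24 UMIs), a log2 ratio of -0.89 (-1.70 to -0.053). *Dl*-negative cells had 7.19 CPM in *esgts/D30A* and 9.07 CPM in *esgts/+*, a log2 ratio of -0.34 (-0.97 to 0.30), but 26 of the 48 *esgts/D30A* UMIs came from 1 cell, and without the cell with most *rho* in each library the ratio was -1.36. Enteroendocrine cells held 7 *rho* UMIs in *esgts/D30A* and 18 in *esgts/+*, 5.48 CPM (2.203 to 11.3) against 22.4 CPM (13.3 to 35.4), a log2 ratio of -2.03 (-3.54 to -0.71). Thinning before summing gave 1.00 from a draw of 2 and 1 UMIs, and -1.90 as the expectation over all draws. Enterocytes had 0.738 CPM in *esgts/D30A* and 0.936 CPM in *esgts/+*.

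The receptor *Egfr* was largely a progenitor transcript and was slightly lower in *esgts/D30A*. *Dl*-positive cells had 262 CPM (249.9 to 276) in *esgts/D30A* and 292 CPM (272 to 314) in *esgts/+*, and *Dl*-negative cells 178 CPM (168 to 188) and 226 CPM (213 to 240.5). The log2 ratios were -0.15 (-0.28 to -0.029) in *Dl*-positive and -0.35 (-0.47 to -0.23) in *Dl*-negative cells, both below the 1.5-fold limit with intervals off 0, although the *Dl*-negative value was -0.62, past that limit, with classes from single transcripts. Enteroendocrine cells held 5 *Egfr* UMIs in *esgts/D30A* and 9 in *esgts/+*, too few to compare, although the ligand gene *Krn* was at its highest of the 4 classes in these cells. Enterocytes had 5.04 CPM in *esgts/D30A* and 5.36 CPM in *esgts/+* (log2 ratio -0.091 [-0.51 to 0.33]). The largest unnamed cluster, which had enterocyte markers, is not in that class. Its *Egfr* level was 68.2 CPM (48.8 to 92.9) in *esgts/D30A* and 92.9 CPM (68.7 to 122.8) in *esgts/+*, from 40 and 49 UMIs. After thinning to 3400 UMIs, 66.5% (60.1% to 72.6%) of *Dl*-positive cells had an *Egfr* UMI in *esgts/D30A* and 68.5% (60.8% to 75.4%) in *esgts/+*, and 46.5% (40.4% to 52.8%) and 55.6% (49.6% to 61.4%) of *Dl*-negative cells, so the shares overlapped in both. Unthinned, the shares were 93.9% and 92.5% of *Dl*-positive cells and 244 of 305 and 285 of 383 *Dl*-negative cells.

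*Ras85D*, the GTPase that passes the signal from the receptor to the kinase cascade, was spread over all classes. It stood at 55.7 CPM (50 to 61.9) in *esgts/D30A* and 47.0 CPM (39.0 to 56.0) in *esgts/+* *Dl*-positive cells, with log2 ratios of 0.25 (-0.055 to 0.55) there and 0.24 (-0.0063 to 0.49) in *Dl*-negative cells, where levels were 56.2 and 47.6 CPM. Enteroendocrine cells had 90.0 CPM (74.3 to 108) in *esgts/D30A* and 62.3 CPM (46.2 to 82.1) in *esgts/+*, and enterocytes 30 CPM (27.8 to 32.3) and 22.6 CPM (20.3 to 25.03). The log2 ratios of 0.53 (0.04 to 1.04) and 0.41 (0.22 to 0.60) lay under the 1.5-fold limit, and the enterocyte value was -0.04 relative to the median of all genes there.

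The nuclear effectors *pnt*, the activator, and *yan*, its repressor counterpart, were both somewhat lower in *esgts/D30A* progenitors. In *Dl*-positive cells *pnt* stood at 91.9 CPM (84.5 to 99.7) in *esgts/D30A* and 103.5 CPM (91.5 to 117) in *esgts/+*, and in *Dl*-negative cells at 70.0 CPM (63.8 to 76.6) and 88.3 CPM (79.8 to 97.4), with log2 ratios of -0.17 (-0.38 to 0.042) and -0.34 (-0.53 to -0.14). For *yan* the *Dl*-positive values were 100.2 CPM (92.5 to 108) in *esgts/D30A* and 130.2 CPM (117 to 145) in *esgts/+*, and the *Dl*-negative values 94.1 CPM (86.9 to 102) and 111 CPM (101 to 121), with log2 ratios of -0.38 (-0.57 to -0.18) and -0.24 (-0.41 to -0.065). Each was lower in *esgts/D30A* in both progenitor clusters, with an interval off 0 in 2 for *pnt* and in 1 for *yan*, though none of these summed ratios reached 1.5-fold. In *Dl*-negative cells the *pnt* ratio was -0.76, past that limit, in 1 draw of thinned cells (43 and 82 UMIs), and -0.50 as the expectation over all draws. In enteroendocrine cells *pnt* and *yan* differed little, at 100.2 and 119 CPM in *esgts/D30A* and 106 and 132 CPM in *esgts/+*. Enterocytes had 80.4 CPM of *yan* in *esgts/D30A* and 71.2 CPM in *esgts/+* (log2 ratio 0.17 [0.068 to 0.28]), but *yan* was lower in *esgts/D30A* in 8 of the 10 enterocyte clusters with 20 UMIs. Of these clusters, 1 lower and 1 higher had an interval off 0. Enterocyte *pnt* stood at 21.3 and 23.9 CPM in *esgts/D30A* and *esgts/+*.

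Among enterocytes, 1 small cluster had far higher levels of *yan* and *pnt* than the others. That cluster, 37 cells in *esgts/D30A* and 57 in *esgts/+* led by *CR43314*, *Pde9* and *Fas3*, had 1076 CPM (899 to 1276) of *yan* in *esgts/D30A* and 1096 CPM (927 to 1286) in *esgts/+*. No other cluster exceeded 202 CPM of *yan*, but this one held only 131 of 1852 enterocyte *yan* UMIs in *esgts/D30A* and 150 of 1142 in *esgts/+*. Its *pnt* level was 271 CPM (186 to 380.5) in *esgts/D30A* and 175 CPM (112 to 261) in *esgts/+*. Exons of *yan* overlap those of *CG15382* on the other strand.

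**Figure D3:**
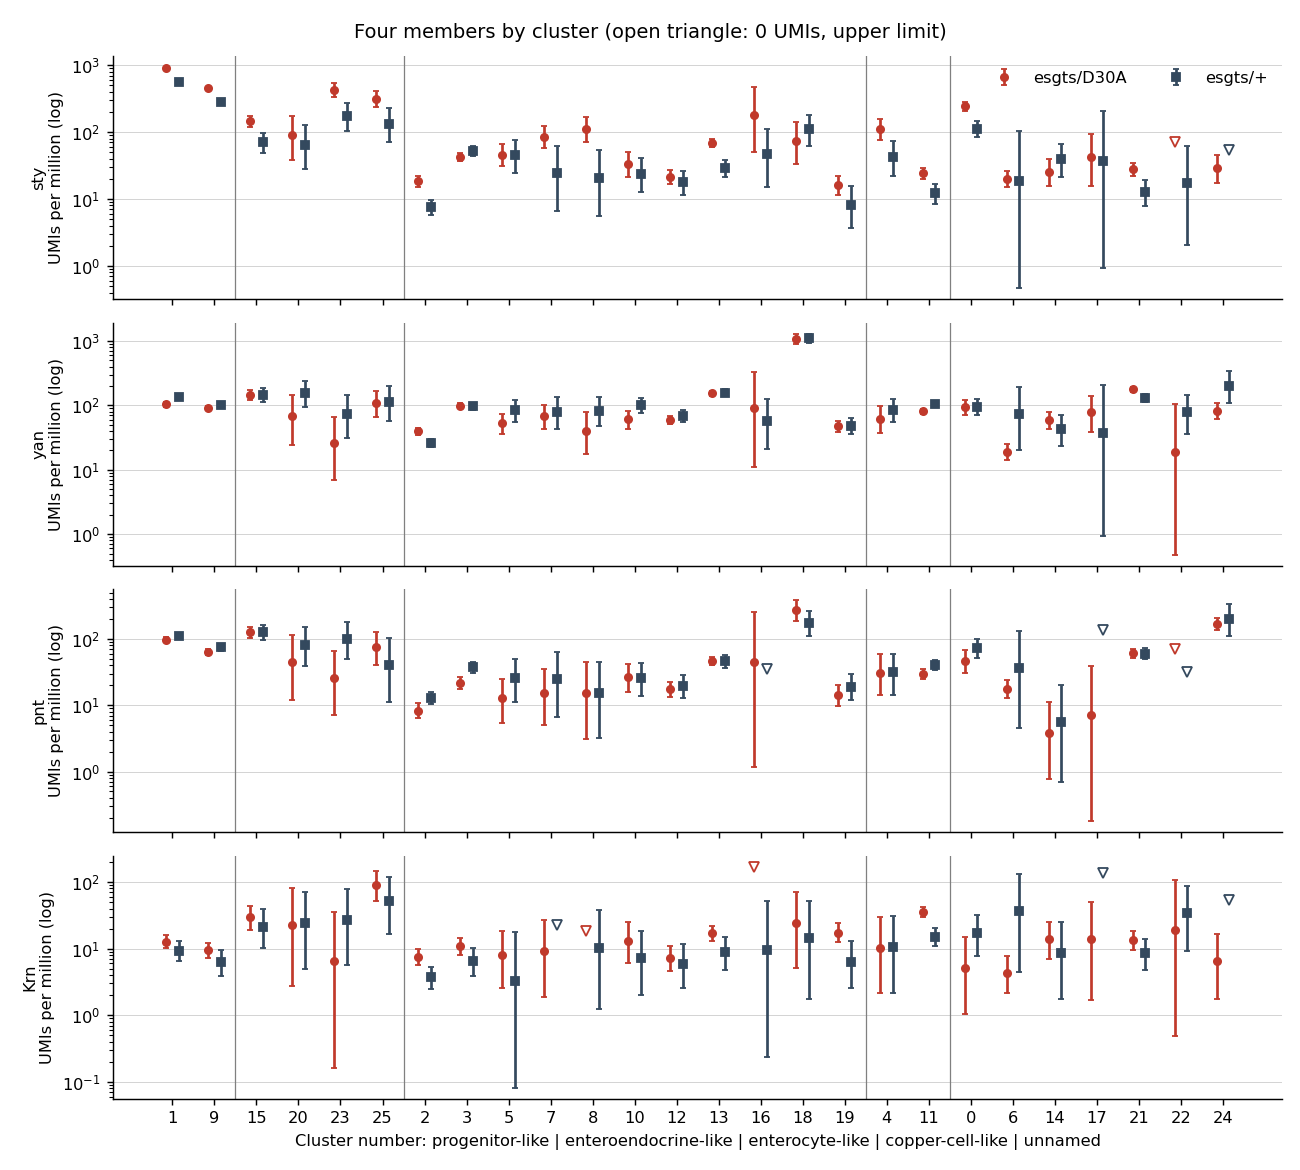
CPM (log axis) of *sty*, *yan*, *pnt* and *Krn* in each cluster by library, with *esgts/D30A* left of *esgts/+*, exact Poisson 95% intervals, and open triangles at the upper limit where a cluster had 0 UMIs. *sty* is highest in the progenitor clusters, at 908 CPM in *esgts/D30A* and 556 CPM in *esgts/+* in the larger of them, whereas *yan* peaks at 1076 and 1096 CPM in the small enterocyte cluster.

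The intracellular inhibitor *sty* had the highest level of the members in progenitors and was higher in *esgts/D30A* in each of the 4 classes. Over all progenitors it had 8906 UMIs in *esgts/D30A* and 2994 in *esgts/+*, or 689 CPM (675 to 704) against 419 CPM (405 to 435), a log2 ratio of 0.72 (0.66 to 0.78). Relative to the median of all genes compared the ratio was 0.57. Leaving out every barcode found in both libraries gave 0.86, and leaving out their shallower copies alone gave 0.71. *Dl*-positive cells had 763 CPM (741 to 785) in *esgts/D30A* and 419 CPM (395 to 445) in *esgts/+*, and *Dl*-negative cells 620.3 CPM (602 to 639) and 419.6 CPM (401 to 439), with log2 ratios of 0.86 (0.77 to 0.96) and 0.56 (0.49 to 0.64). The gap between these ratios closed, to 0.71 in each, when *Dl* was called after thinning to 3400 UMIs, so the larger *Dl*-positive ratio was not separable from depth. In *Dl*-negative cells the ratio was 0.54 as the expectation over all thinnings (0.32 in a single draw) and 0.24 when progenitors were defined by *esg* transcripts alone.

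Cell by cell, *sty* was spread over the compartment. Progenitors had a median of 15 *sty* UMIs per cell in *esgts/D30A* and 4 in *esgts/+*, and the cell with most *sty* held 1.13% and 0.935% of its UMIs. At 3400 UMIs per cell, with 233 and 168 *Dl*-positive cells of *esgts/D30A* and *esgts/+* kept, the median was 3 UMIs in *esgts/D30A* and 1 in *esgts/+*, and cells with 5 or more were 23.6% and 7.14%. Of *Dl*-positive cells 92.3% (88.1% to 95.4%) had at least 1 *sty* UMI in *esgts/D30A* and 74.4% (67.1% to 80.8%) in *esgts/+*, against 99.6% and 89.8% without thinning. *Dl*-negative cells with a *sty* UMI were 208 of 260 (74.6% to 84.7%) in *esgts/D30A* and 76.4% (71.1% to 81.2%) in *esgts/+* after thinning, and 24.2% and 8.68% with 5 or more, so the difference lay in cells with many tags more than in cells with any. Thinning left out 11 and 18 *Dl*-positive and 45 and 95 *Dl*-negative cells of *esgts/D30A* and *esgts/+*.

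**Figure D4:**
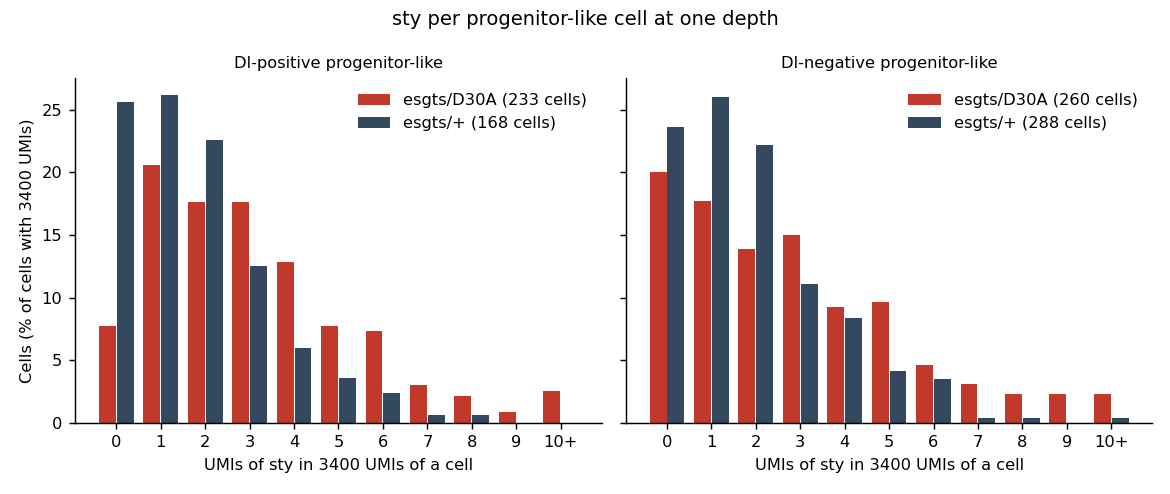
Percent of *Dl*-positive and *Dl*-negative progenitor-like cells (y axis) with each number of *sty* UMIs (x axis) after every cell was thinned to 3400 UMIs, *esgts/D30A* left of *esgts/+*. Cells with 5 or more *sty* UMIs make up 23.6% of *Dl*-positive cells in *esgts/D30A* and 7.14% in *esgts/+*.

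The same direction was seen outside progenitors. Enteroendocrine cells had 200.3 CPM (177 to 226) of *sty* in *esgts/D30A* and 90.9 CPM (71.3 to 114) in *esgts/+*, a log2 ratio of 1.14 (0.76 to 1.54), and *sty* was higher in *esgts/D30A* in each of the 3 enteroendocrine clusters with 20 UMIs. Levels there were 144 CPM in *esgts/D30A* and 70.0 CPM in *esgts/+* in the cluster led by *CCHa2* and *CCHa1*, 432 and 172 CPM in that led by *NPF*, and 315 and 133 CPM in the *Tk* cluster. The ratio was 0.13 when enteroendocrine cells were instead defined by a *pros* transcript and no *esg* transcript. Enterocytes had 35.1 CPM (32.7 to 37.6) in *esgts/D30A* and 21.5 CPM (19.3 to 23.9) in *esgts/+*, a log2 ratio of 0.71 (0.52 to 0.89) and 0.26 relative to all genes. In enterocyte clusters with 20 UMIs *sty* was higher in *esgts/D30A* in 8 of 10, 4 of these with an interval off 0. The enterocyte ratio was 0.52 without the barcodes shared by the libraries and 0.72 without 2 enterocyte clusters that were mostly *esgts/+* cells (43 and 12 cells of *esgts/D30A* against 224 and 154 of *esgts/+*). Counting each cell equally gave 1.39, and the expectation over all thinnings was 1.53.

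The secreted inhibitor *aos* was a progenitor transcript too, at far lower counts than *sty*. *Dl*-positive cells had 60.8 CPM (54.9 to 67.3) in *esgts/D30A* and 38.2 CPM (31.1 to 46.4) in *esgts/+*, a log2 ratio of 0.67 (0.35 to 1.004), while *Dl*-negative cells had 44.5 CPM (39.6 to 49.8) and 38.1 CPM (32.6 to 44.2), a log2 ratio of 0.22 (-0.051 to 0.50) whose interval included 0. Relative to the median of all genes the *Dl*-positive value was 0.50, under the 1.5-fold limit. Over all progenitors the log2 ratio was 0.46 (0.25 to 0.67), with *aos* higher in both progenitor clusters. Enteroendocrine cells held 16 *aos* UMIs in *esgts/D30A* and 6 in *esgts/+* (log2 ratio 0.74 [-0.68 to 2.39]), and enterocytes 32 and 20.

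The members also differed within the progenitor compartment. *Dl*-positive cells had more *Egfr* than *Dl*-negative cells in each library, 1.48-fold (1.37 to 1.59) in *esgts/D30A* and 1.29-fold (1.17 to 1.42) in *esgts/+*, and more *pnt*, 1.31-fold (1.16 to 1.49) and 1.17-fold (1.00 to 1.37). For *sty* the folds were 1.23-fold (1.18 to 1.28) in *esgts/D30A* and 0.999-fold (0.927 to 1.08) in *esgts/+*, and for *aos* 1.37-fold (1.17 to 1.60) and 1.00-fold (0.776 to 1.29). *Ras85D* was level between *Dl*-positive and *Dl*-negative cells, at 0.992-fold (0.854 to 1.15) in *esgts/D30A* and 0.987-fold (0.784 to 1.24) in *esgts/+*. Deep cells are more likely to show a *Dl* UMI, so these folds and depth cannot be fully told apart. The smaller, RNA-rich progenitor cluster (146 cells in *esgts/D30A* and 158 in *esgts/+*, led by *CG44085* and *unc-104*, median 25510.5 UMIs) had less *sty* than the larger cluster, with log2 ratios of -0.97 (-1.04 to -0.91) in *esgts/D30A* and -1.002 (-1.11 to -0.89) in *esgts/+*. *Egfr* (-0.69 [-0.80 to -0.58] and -0.76 [-0.90 to -0.62]) and *spi* (-0.55 [-0.75 to -0.35] and -0.90 [-1.19 to -0.61]) were likewise lower there, in *esgts/D30A* and *esgts/+*, while for *Ras85D* (0.21 [-0.00068 to 0.43] and 0.31 [-0.0033 to 0.63]) the intervals reached 0. Also lower were *rho* (-2.74 and -0.81), *pnt* (-0.62 and -0.56), *yan* (-0.18 and -0.41) and *aos* (-0.28 and -0.50), and *Krn* had intervals that included 0. In *esgts/D30A* 1 cell of the larger cluster held 26 of its 69 *rho* UMIs. Only *vn* was higher with intervals off 0 (1.92 and 1.59), and the cell with most *vn* of each library lay in the RNA-rich cluster.

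As a list, the members did not share a direction between genotypes. In *Dl*-positive cells 3 of 10 were at least 1.5-fold higher in *esgts/D30A* (*sty*, *vn* and *aos*), where 23.2% of genes were, and 1 of 10 at least 1.5-fold lower (*rho*), where 6.64% were. The median log2 ratio of the members was 0.20, beside 0.17 over all genes compared. The place of *vn* in this count came from 1 cell holding 148 of its 190 UMIs, and without the progenitor cell with most UMIs of each member the members' median was 0.029. In *Dl*-negative cells 1 of 10 was higher (*Krn*; 18.9% of genes) and 1 lower (*vn*; 7.55% of genes), with medians of -0.10 for the members and 0.092 for all genes, and *sty* lay just inside the limit. Enteroendocrine cells, where *Egfr* had under 20 UMIs, had 3 of 9 compared members higher (*sty*, *vn* and *aos*; 15.8% of genes) and 1 lower (*rho*; 12.5% of genes), with medians of 0.43 and -0.0044. Enterocytes had 3 of 10 higher (*Krn*, *spi* and *sty*), below the 40.4% of all genes, and 1 lower (*vn*), where 2.28% of genes were lower, and the members' median of 0.16 lay under the 0.45 of all genes. Over all progenitors 1 of 10 was higher (*sty*; 20.3% of genes) and 0 of 10 lower (6.4% of genes), with medians of -0.046 for the members and 0.14 for all genes. Members were also counted relative to the median of all genes in each class. In *Dl*-positive cells 2 were then past the limit upward and 1 downward, and in *Dl*-negative cells 0 and 1. The counts were 3 and 1 in enteroendocrine cells, 0 and 3 in enterocytes, and 0 and 2 over all progenitors. The share of all genes past the limit on that scale is not given, so these counts have no background beside them.

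**Figure D5:**
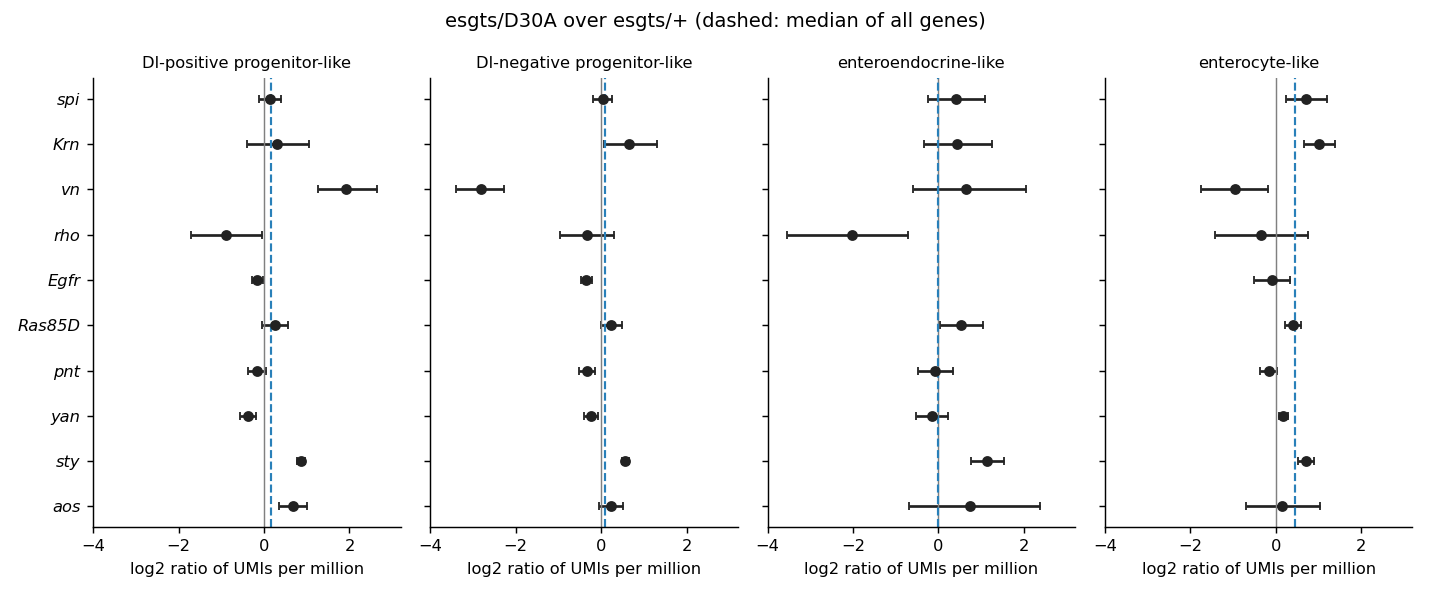
Log2 ratio of *esgts/D30A* over *esgts/+* for each gene in each of the 4 classes, for genes with at least 20 UMIs over both libraries; bars are exact 95% intervals and the dashed blue line is the median over all genes compared in the class. *sty* is to the right of 0 in every class, from 0.56 in *Dl*-negative progenitors to 1.14 in enteroendocrine cells, while *vn* takes opposite signs in *Dl*-positive (1.92) and *Dl*-negative (-2.82) progenitors.

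A wider list of 36 symbols for other genes of the pathway gave 34 matched in the annotation, 29 of them with 20 UMIs in progenitors. Of these, 10 were at least 1.5-fold higher in *esgts/D30A* and 0 lower, against the 20.3% and 6.4% of all genes. Their median log2 ratio was 0.23, beside 0.14 over all genes compared. Relative to that median of all genes 8 were past the limit, all upward, and the share of all genes on that scale is not given. The adaptors and core kinases gave 4 of 11. *Dsor1*, the MAP kinase kinase, had 10.6 CPM in *esgts/D30A* and 3.08 CPM in *esgts/+* (log2 ratio 1.78 [1.13 to 2.50]), and the phosphatase gene *csw* had 30.7 CPM in *esgts/D30A* and 18.6 CPM in *esgts/+* (0.72 [0.43 to 1.02]). The adaptor gene *Shc* had a log2 ratio of 0.61 (0.33 to 0.88) and *ave* of 0.83 (0.048 to 1.68). The inhibitors gave 4 of 10: *Cbl*, the ubiquitin ligase that removes the receptor, had 129 CPM in *esgts/D30A* and 50.4 CPM in *esgts/+* (1.35 [1.19 to 1.52]), and *Spred*, a Sprouty-related inhibitor, 41.6 CPM in *esgts/D30A* and 22.8 CPM in *esgts/+* (0.87 [0.61 to 1.13]). The Ras GTPase-activating protein genes *vap* and *Nf1* had log2 ratios of 1.09 (0.53 to 1.69) and 0.80 (0.41 to 1.199). The transcription factors and targets gave 2 of 6, the growth regulator gene *Myc*, with 879 CPM in *esgts/D30A* and 376 CPM in *esgts/+* (1.23 [1.17 to 1.29]), and the cyclin gene *CycE*, whose log2 ratio of 0.73 (-0.47 to 2.09) had an interval that included 0. Named after their values were seen, 2 further inhibitors were the MAP kinase phosphatase gene *Mkp3*, with 275 CPM in *esgts/D30A* and 307 CPM in *esgts/+* (-0.16 [-0.23 to -0.08]), and *edl*, which antagonises Pointed and Yan, with 48.2 CPM in *esgts/D30A* and 61.2 CPM in *esgts/+* (-0.34 [-0.52 to -0.17]). The ligands and proteases gave 0 of 2, and *ru* and *rho-6* had 0 UMIs in progenitors of either genotype. Outside progenitors, *Cbl* had log2 ratios of 1.11 (0.22 to 2.08) in enteroendocrine cells and 1.197 (0.87 to 1.53) in enterocytes, and *Myc* of 0.65 (0.19 to 1.12) and 1.25 (1.14 to 1.35). Those of *Dsor1* were 1.91 (0.65 to 3.45) and 1.98 (1.49 to 2.49). In enterocytes *csw* and *Shc* had 0.76 each, *ave* 1.03, *Spred* 0.95, *vap* 0.99 and *Nf1* 0.56, where the median of all genes was 0.45. In enteroendocrine cells *csw* (0.26), *Shc* (0.37), *Spred* (0.11) and *vap* (0.67) had intervals that included 0, and *Nf1* had 0.66.

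Genes whose levels ran most like each member's were ranked over 33 combinations of cluster and library with at least 50 cells, among 6801 genes, by Pearson's r of log2(CPM + 10). These points share their libraries and the differences in depth between clusters, so the values are a description. For *Egfr* they were *LanA* (0.93), *N* (0.92), *Vrp1* (0.91), *robo2* (0.91) and *esg* (0.91), and for *sty* *Lrch* (0.93), *CG3638* (0.92) and *CG14696* (0.91). For *aos* they were *dap* (0.89), *HmgD* (0.89), *ball* (0.88), *esg* (0.88) and *Nrt* (0.87), and for *spi* *Sep1* (0.93) and *HmgD* (0.91). The genes most like *yan* were *CG42674* (0.93), *par-1* (0.92), *Gug* (0.92) and *GEFmeso* (0.92). Of these, *CG42674* and *GEFmeso* are also among the 10 leading genes of the small enterocyte cluster. That cluster entered the points through its 57 *esgts/+* cells only, as its 37 *esgts/D30A* cells were too few. The nearest gene to *pnt* was *CG43143* (0.90), to *Ras85D* *SF2* (0.90), to *rho* *Mnn1* (0.82) and to *vn* *Rlip* (0.84). *Krn* was closest to *egl* (0.80), with its overlapping neighbour *Ndfip* at 0.78.

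In the BDGP6.54 annotation, matched by FlyBase identifier, all 10 genes are protein-coding. *Egfr* (FBgn0003731) lies at 2R:21522420-21559977, *spi* (FBgn0005672) at 2L:19567900-19577315 and *yan* (FBgn0000097) at 2L:2156484-2178754. On arm 3L lie *rho* (FBgn0004635) at 3L:1463811-1468944, *sty* (FBgn0014388) at 3L:3401153-3424935, *vn* (FBgn0003984) at 3L:5813338-5845664, *aos* (FBgn0004569) at 3L:16470386-16483650 and *Krn* (FBgn0052179) at 3L:17649562-17654280. On arm 3R lie *Ras85D* (FBgn0003205) at 3R:9510561-9513067 and *pnt* (FBgn0003118) at 3R:23290231-23346167. The build used for the counts is not given in the sources used here, so these positions were not used to make any value.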

How the data were processed

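Single-cell transcriptomes were obtained from 1 library of each genotype. Per the labels and file headers, the authors captured cells with a 10x Chromium 3′ kit and counted them with Cell Ranger (3.0 in the submitters' processing notes, 3.0.2 in the file header), and their notes name Seurat 3.1.1. What the authors deposited is the unnormalized count of UMIs of every gene in every barcode; the aligner settings and genome build are not given in the sources used here. Counts were unchanged except by filtering: cells under 200 genes or over 25% mitochondrial UMIs were dropped (31.9% of *esgts/D30A* and 3.39% of *esgts/+* barcodes exceeded that limit). Because Scrublet's automatic call marked 1 and 0 cells, the cells with the highest scores were removed at 0.8% per 1000 barcodes (218 and 139). Integration (Seurat 5.3.0, R 4.3.3) used 2000 variable genes per library, without the members and the wider list, and 30 dimensions, and clustering a resolution of 0.8. Naming a cluster took 3 or more markers that were 1.5-fold enriched and found in 10% of its cells, but these did not always suffice. The largest cluster, with 652 cells in *esgts/D30A* and 707 in *esgts/+*, had 11 such enterocyte markers. It was left unnamed because a different class was better represented in the list of its top genes.

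UMIs were summed by class and library. Levels are CPM with exact Poisson 95% intervals, shares have exact Clopper-Pearson 95% intervals, and log2 ratios have exact conditional binomial 95% intervals (scipy 1.17.1), which cover counting error only. With 1 library per genotype there are no replicates and no tests. Totals were 53275921 and 30383272 UMIs in *esgts/D30A* and *esgts/+*. Thinning drew 750 UMIs per cell for all classes and 3400 for progenitors, leaving out shallower cells; thinning before summing took each class to a depth of its own (2400 in *Dl*-negative and 1650 in enteroendocrine cells), as 1 random draw and as the expected UMIs over all draws. The ratio script was checked on simulated counts. Every member is named in every class, and the genes most similar to each member are named by Pearson's r. Wider-list genes are named where they passed 1.5-fold with 20 UMIs in progenitors. In that list 2 symbols, *phl* and *Gap1*, were not matched, while *Raf* and *RasGAP1* on the same list were. The members and lists were chosen with earlier results of these data known. Cell filters, doublet removal, resolution, integration, weighting, *Dl* calls, count minimums and class definitions were varied.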

Additional observations from a re-analysis of the deposited data

Results flagged for a closer look

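The *vn* ratio took opposite directions in different cell types, each with an interval off 0, and the difference between them was not tested. It was 1.92 in *Dl*-positive progenitor-like cells but -2.82 in *Dl*-negative progenitor-like cells, and 1.92 in *Dl*-positive progenitor-like cells but -0.95 in enterocyte-like cells. In *Dl*-positive and *Dl*-negative cells together the log2 ratio was -0.56. The 2 progenitor values rest largely on 1 cell per library, and without those 2 cells they were -0.22 and -0.66.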

How the results depend on the processing

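Of the values of single genes between genotypes recomputed under other choices, 695 stayed within their counting interval, 74 moved outside it and 11 turned sign from a value past 1.5-fold. Sign changes of smaller ratios are not among the 11. For example, *spi* changed sign in 3 of 18 alternatives in *Dl*-positive and 5 of 18 in *Dl*-negative cells. In enterocytes *Egfr* did so in 6 and *yan* in 4 of 15, and in enteroendocrine cells *pnt* in 2 and *yan* in 1 of 15. For *vn* in *Dl*-positive cells the sign turned to -0.18 with each cell weighted equally, -0.51 with at least 2 *Dl* UMIs required, -1.16 with *Dl* called after thinning, -0.0042 without the barcodes shared by the libraries, -0.0014 without the cell with most *vn* of each library and class and -0.22 without the progenitor cell with most *vn* of each library. In enteroendocrine cells *vn* turned to -0.12 under a stricter cell filter (500 genes, 10% mitochondrial UMIs) and -0.38 with classes from single transcripts, which also turned *aos* to -0.57. A single draw of thinned cells gave 1.00 for *rho* in enteroendocrine cells (2 and 1 UMIs) and -0.19 for *Krn* in *Dl*-negative cells (7 and 9 UMIs), but the expectations over all draws, -1.90 and 0.86, kept the sign. The cause was not tested, apart from the *vn* cells that hold most of its UMIs. The progenitor *sty* ratio of 0.72 stayed positive in all 15 alternatives (0.48 to 0.86): 0.57 relative to all genes, 0.79 with cells weighted equally, 0.48 with classes from single transcripts and 0.86 without shared barcodes. The members' median in enterocytes was -0.28 relative to all genes and otherwise kept its sign. The members' median ranged from -0.19 to 0.38 in *Dl*-positive cells and from -0.03 to 0.56 in enteroendocrine cells, changing sign in 2 alternatives each, and from -0.29 to -0.05 in *Dl*-negative cells. For progenitors over enterocytes, 162 ratios stayed within their interval and 38 moved outside it, none turning sign. The choices on shared barcodes (all copies, or the shallower alone), thinning before summing (1 draw, or the expectation), the cell with most UMIs (by class, or over progenitors), and clusters over 80% of 1 library were added after seeing the data. No paired analysis was possible because each genotype has 1 library.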

Other observations

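*Krn* was high in copper-cell-like cells, the acid-secreting cells of the middle midgut, which the comparisons above do not use. These cells had 34.1 CPM (29.1 to 39.8) in *esgts/D30A*, from 162 UMIs, and 14.6 CPM (10.6 to 19.6) in *esgts/+*, from 44 UMIs. The difference was mostly seen in the deeper of 2 such clusters, led by *Vha100-4*, with 35.7 CPM in *esgts/D30A* and 15.01 CPM in *esgts/+*. An unnamed cluster led by *CG13285* and *EbpIII* had 168 CPM (138 to 204) of *pnt* in *esgts/D30A* and 202 CPM (110.4 to 339) in *esgts/+*. Another unnamed cluster, with *Pvf1* among its leading genes, had 11.6 CPM (7.96 to 16.4) of *rho* in *esgts/D30A* and 16.1 CPM (10.7 to 23.2) in *esgts/+*, from 32 and 28 UMIs. These values were picked after they were seen and were not tested.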
